A study of Mus musculus with 9 samples.

Results

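Keratins are the intermediate filament proteins of epithelia, and 8 keratin genes of embryonic mouse orofacial tissue, the tissue of the developing face and palate, are described here over 3 successive days of gestation. They were Krt8, Krt18 and Krt19 (keratins of simple, 1-layered epithelium), Krt5, Krt14 and Krt15 (keratins of the basal layer) and Krt6a and Krt17 (keratins found in periderm, the flat outer cell layer of embryonic epithelium). Members were all probe sets of a one-colour oligonucleotide array whose annotation gave exactly 1 symbol, that of 1 of these genes. All 8 genes had such a probe set, 13 in all, among 8251 genes and 10833 probe sets with a single symbol. Gestation day (GD) 12, GD13 and GD14 had 3 arrays of total RNA each, and the labels give no genotype, strain or treatment. Whether the 3 arrays of 1 day stand for different litters or for pooled embryos is not in the labels, and p-values below measure the spread between these samples only, which may be technical.

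A keratin filament is built from pairs of a type I keratin (here Krt14, Krt15, Krt17, Krt18 and Krt19) and a type II keratin (here Krt5, Krt6a and Krt8). Filaments are anchored at desmosomes between cells and at hemidesmosomes on the basement membrane. Krt8 with Krt18 is the usual pair of simple epithelium, and Krt5 with Krt14 that of dividing basal cells. In the embryo, periderm covers the oral epithelium, including that of the palatal shelves before they meet.

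In mouse the type II genes lie in a cluster on chromosome 15 and the type I genes in one on chromosome 11, except Krt18, which lies on chromosome 15 next to its partner Krt8. The RefSeq promoter table of build GRCm38.p6 held 4 of the 8 genes (Krt5, Krt8, Krt14 and Krt18). The upstream sequences of Krt8 and Krt18 are shown because they belong to neighbouring partner genes that were both measured above the filter used below. Each is the 150 bases before the annotated start, 5′ to 3′ on the strand of the gene, at chr15:102004343-102004492 (minus strand) for Krt8 and chr15:102028066-102028215 (plus strand) for Krt18. Capitals mark a match to the AP-2 motif.
Krt8: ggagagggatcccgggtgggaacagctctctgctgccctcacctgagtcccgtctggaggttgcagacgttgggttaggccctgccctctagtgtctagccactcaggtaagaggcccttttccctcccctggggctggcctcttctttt
Krt18: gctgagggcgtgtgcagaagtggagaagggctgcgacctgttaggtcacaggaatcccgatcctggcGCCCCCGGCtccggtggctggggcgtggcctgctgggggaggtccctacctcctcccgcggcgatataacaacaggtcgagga

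Both strands of the 300 bases of each table entry were searched for 5 motifs. The core promoter box had the letters TATAAA. The motif of Sp factors was GGGCGG. The motif of AP-2 was GCCNNNGGC, that of AP-1 was TGANTCA, and that of GRHL was AACCNGTT. Krt18 had 1 match, to AP-2, starting 83 bases before the start. AP-2 letters were found in 16.5% of 27025 promoters, 1 per gene. Krt8 had 2 overlapping matches to TATAAA, starting 3 and 1 bases before the annotated start and running past it, and these letters were found in 14.2% of promoters. GGGCGG was in 35.9%, TGANTCA in 7.93% and AACCNGTT in 2.01% of promoters, and in none of the 4 member promoters. These are matches of letters and not binding sites.

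Values are the deposited intensities, which are linear and, as read from the values themselves, already scaled between arrays. Array medians lay between 47.15 and 56.95. Of the 13 keratin probe sets, 8 (of 5 genes) had a mean log2 value above the 25th percentile of all probe sets, which corresponds to an intensity of 10.4, and were tested. The other 5 were 1 probe set each of Krt5, Krt14 and Krt15, and a dim further probe set each of Krt18 and Krt19. The 17 measured genes of facial mesenchyme were all tested, and their mean log2 level was 8.04 to 8.31 on every array. The series holds no other tissue for comparison, so this level does not check the orofacial label. Actin control probe sets at the 3′ and 5′ ends of the transcript gauge how intact the labelled RNA was. Their 3′/5′ ratio read 1.54, 1.76 and 1.42 on GD12, 2.09, 2.23 and 1.25 on GD13, then 2.44, 2.29 and 1.37 on GD14. The third arrays were thus lowest, and on the others the ratio rose with the day.

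**Figure D1:**
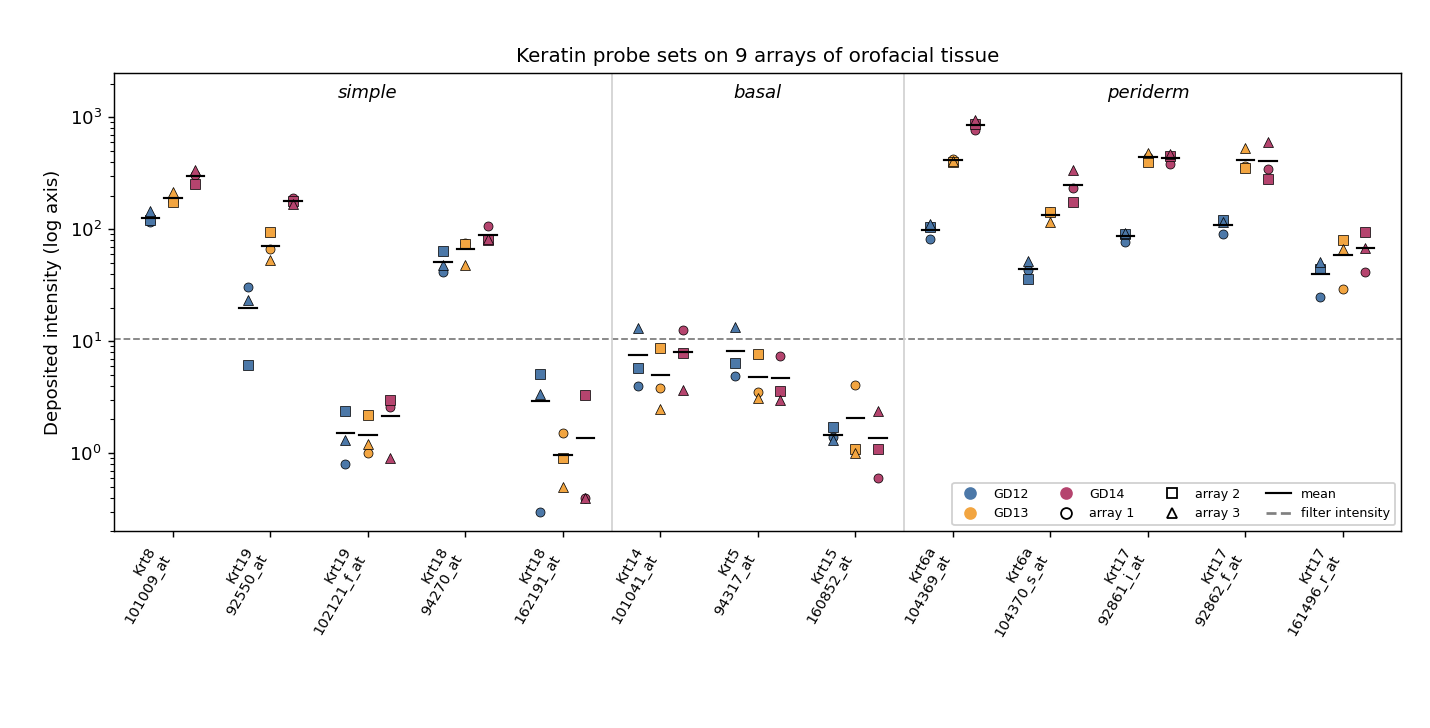
Deposited intensity (log axis) of the 13 keratin probe sets on the 9 arrays. Each point is 1 array (shape gives the replicate number, colour the day), short lines are means of 3 arrays, and the dashed line is the filter intensity of 10.4. The Krt6a and Krt17 probe sets lie above the line, and Krt5, Krt14 and Krt15 lie mostly below it.

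Between GD12 and GD14, transcripts of Krt6a, Krt17, Krt19 and Krt8 rose, and none of the 8 tested keratin probe sets fell. In limma 6 of the 8 tested probe sets rose (4 of 5 genes), where 3.24% of all 9316 tested probe sets rose. Of the 9316, 401 passed in this comparison in either direction, and 302 of these rose. The median log2 change of the 8 was 2.04, against -0.02 over all tested probe sets. The genes were chosen with earlier results of these data known, so these shares are a description and not an independent test. From GD12 to GD13, 4 of the 8 rose, all of Krt6a and Krt17, where 0.569% of all tested probe sets rose. From GD13 to GD14, 0 of the 8 passed in limma, where 0.0322% of all tested probe sets rose, and 4 of the 8 had an unadjusted p under 0.05, as had 669 of the 9316. The moderated F-test over the 3 days called the same 6 probe sets as the comparison of GD14 with GD12, where it called 2.59% of all. Every GD14 value lay above every GD12 value for 7 of the 8, against 12.1% of all tested probe sets, every GD13 value above every GD12 value for 6 of the 8 (10.1% of all), and every GD14 value above every GD13 value for 5 of the 8 (7.13% of all). In tissue RNA, more cells of a type and more transcript per cell cannot be told apart.

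Krt6a, a type II keratin of periderm and of stressed or wounded epithelium, rose between GD12 and GD13, and its values were higher again on GD14. Its brighter probe set (104369_at) read 81.2, 105.0 and 111.3 on the GD12 arrays, 428.5, 402.3 and 411.1 on GD13, then 777.7, 865.4 and 944.0 on GD14. The 3 days did not overlap, and the spread within a day was small beside the distance between days. It rose 4.12-fold from GD12 to GD13 (log2 2.04, SE 0.16, limma adjusted p = 0.00114) and 8.52-fold from GD12 to GD14 (log2 3.09, SE 0.16, adjusted p = 5.9e-05). From GD13 to GD14 the log2 change was 1.05 (SE 0.16, 95% interval 0.68 to 1.42), which did not pass (adjusted p = 0.102). It passed with 11 added before log2 (adjusted p = 0.0491), with a filter at the median (0.0318) and with a trended, robust variance (0.0156).

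Another Krt6a probe set (104370_s_at) carries the array maker's suffix for probes shared by similar transcripts. It read 43.6, 35.9 and 51.9 on GD12, 141.3, 143.4 and 116.1 on GD13, then 234.2, 174.9 and 339.6 on GD14. The days again did not overlap, with the widest spread on GD14. It rose by a log2 of 1.55 to GD13 (SE 0.25, adjusted p = 0.0339) and of 2.39 from GD12 to GD14 (SE 0.25, adjusted p = 0.00134). The neighbouring gene Krt6b encodes a nearly identical keratin, and how the probes divide between both genes was not checked. The probe set annotated to Krt6b alone read 52.6 to 86.8 on GD12, 81.8 to 96.2 on GD13 and 52.5 to 76.3 on GD14 and did not pass between GD12 and GD14 (log2 -0.16, adjusted p = 0.789).

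Krt17, a type I keratin of periderm and skin appendages, rose between GD12 and GD13 in 2 of its 3 probe sets. All 3 carry a suffix of the array maker other than the plain _at (_i_at, _f_at and _r_at). Their probe sequences were not checked. Its probe set 92861_i_at read 77.7, 90.3 and 93.3 on GD12, 440.4, 402.1 and 479.0 on GD13, then 382.4, 451.8 and 473.2 on GD14. GD13 lay wholly above GD12, and GD14 overlapped GD13. The rise to GD13 was 4.92-fold (log2 2.30, SE 0.16, limma adjusted p = 4.00e-04), and from GD12 to GD14 it was 4.87-fold (log2 2.28, adjusted p = 0.000161). From GD13 to GD14 the log2 change was -0.02 (95% interval -0.37 to 0.34; 0.0002 with median scaling).

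Of the other Krt17 probe sets, 1 also rose between GD12 and GD13 and 1 did not pass. The probe set 92862_f_at, whose suffix marks probes matching a sequence family, read 90.7, 121.8 and 116.4 on GD12, 365.7, 350.7 and 532.4 on GD13, then 343.9, 278.5 and 597.5 on GD14. The third arrays of GD13 and GD14 were the highest of their days. It rose by a log2 of 1.88 to GD13 (SE 0.30, adjusted p = 0.0298) and of 1.80 from GD12 to GD14 (adjusted p = 0.0114), with -0.08 between GD13 and GD14 (95% interval -0.75 to 0.59). The third probe set, 161496_r_at, was dimmer, at 25.1 to 50.8 on GD12, 29.5 to 80.0 on GD13 and 41.8 to 93.8 on GD14. Its days overlapped, though values were higher on the later day in 3 of 3 same-numbered arrays at each step. The log2 change from GD12 to GD14 was 0.70 (95% interval -0.26 to 1.66, limma adjusted p = 0.445, or 0.0595 with the replicate block).

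The first-step calls of the dimmer Krt6a and the family Krt17 probe set ended when single arrays were left out. This held for each GD12 array, each GD13 array and GD14 replicate 1, with the highest adjusted p at 0.159 (Krt6a, without GD13 replicate 2) and 0.109 (Krt17, without GD12 replicate 1). The count of calls was then 2 of 8, and it was also 2 without a filter on dim probe sets. Over all probe sets 17 to 51 calls were then left, and 35 without the filter, in place of 60. The call of the dimmer Krt6a probe set also ended with quantile normalization (adjusted p = 0.0549) and with median scaling (0.0709), which each left 3 calls. Calls of the brighter Krt6a probe set and of 92861_i_at held without any single array. Without the third arrays of all days the count was 1, as the brighter Krt6a probe set had an adjusted p of 0.0595.

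**Figure D2:**
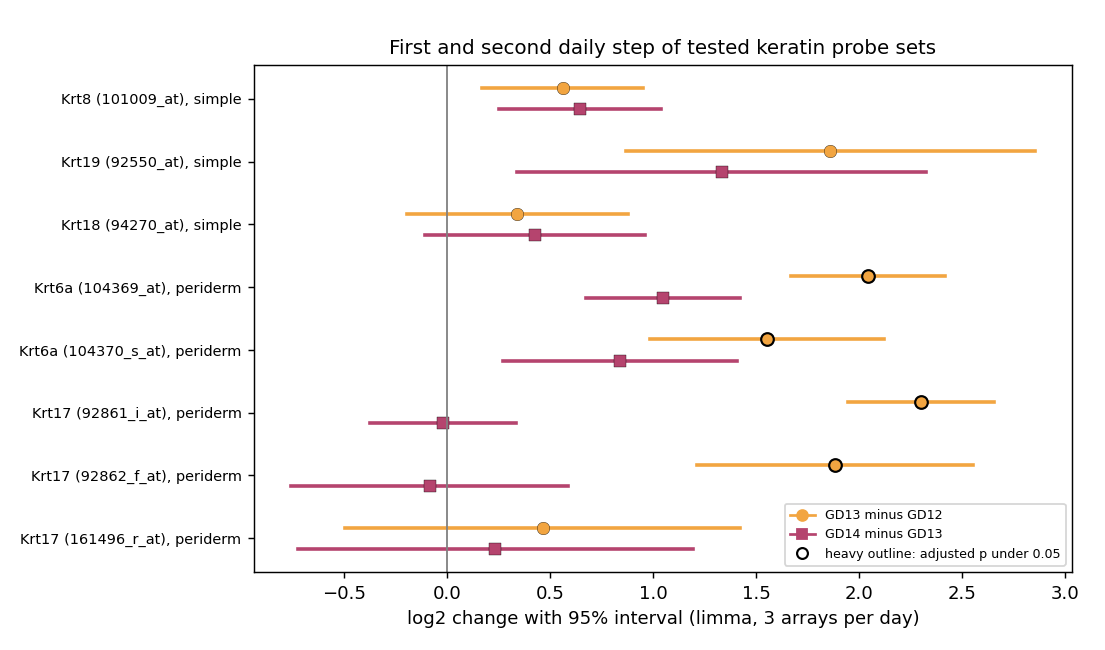
log2 change of the 8 tested keratin probe sets from GD12 to GD13 (circles) and from GD13 to GD14 (squares), with 95% intervals from limma (3 arrays per day). A heavy outline marks an adjusted p under 0.05. The first step of Krt17 92861_i_at is 2.30 and the second -0.02, while both steps of Krt6a 104369_at lie above 0, at 2.04 and 1.05.

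The difference between the daily steps was itself tested as the second step minus the first. In limma 0% of the 9316 probe sets passed this contrast, with 453 at an unadjusted p under 0.05, and 3 of the 8 keratin probe sets were among these. For Krt17 92861_i_at the difference was -2.32 (SE 0.27, 95% interval -2.93 to -1.70, adjusted p = 0.135) and for 92862_f_at it was -1.97 (adjusted p = 0.867). For Krt6a 104369_at it was -0.99 (95% interval -1.64 to -0.35, adjusted p = 0.95). The Krt17 difference passed with a filter at the median (adjusted p = 0.0202), with a trended, robust variance (0.00881) and with array weights (0.0425). For Krt8 it was 0.08 (95% interval -0.60 to 0.76).

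Among the simple keratins, Krt19 and Krt8 rose between GD12 and GD14, and Krt18 did not pass. The 3 tested probe sets, 1 for each gene, had a median log2 change of 1.21, against 2.28 for the 5 tested probe sets of Krt6a and Krt17. The ranges overlapped, at 0.77 (Krt18) to 3.19 (Krt19) and 0.70 (Krt17 161496_r_at) to 3.09 (Krt6a 104369_at). Several of the 5 probe sets measure the same gene, so the medians do not rank the classes. Between GD12 and GD13, 0 of the 3 simple keratin probe sets passed in limma. Their median log2 change was 0.56, against 1.88 for the 5 probe sets of Krt6a and Krt17. These ranges overlapped too, at 0.34 to 1.86 and 0.47 to 2.30.

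Krt19, a small type I keratin of simple and ductal epithelium, read 30.5, 6.1 and 23.3 on GD12, 66.6, 94.5 and 53.4 on GD13, then 192.1, 179.6 and 169.2 on GD14 (92550_at). The days did not overlap, and GD12 replicate 2 lay under the filter intensity. The log2 change from GD12 to GD14 was 3.19 (SE 0.44, limma adjusted p = 0.00481), and it lay between 2.63 and 3.57 when single arrays were left out. The adjusted p was 0.0663 without the third arrays of all days. From GD12 to GD13 the log2 change was 1.86 (95% interval 0.87 to 2.85, adjusted p = 0.131), which passed only with a trended, robust variance among the alternatives run (adjusted p = 0.0498). The size depended on the low GD12 values, with 3.36 when 1 was added before log2 and 2.72 when 11 was added. The further Krt19 probe set read 0.8 to 3.0 on all arrays and was not tested.

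Krt8, the type II keratin of simple epithelium, read 116.3, 120.7 and 145.2 on GD12, 180.4, 174.0 and 213.4 on GD13, then 305.6, 252.6 and 337.3 on GD14. The days did not overlap, and the third array was the highest of each day. Krt8 rose 2.31-fold from GD12 to GD14 (log2 1.21, SE 0.17, limma adjusted p = 0.00615), with changes of 0.56 to GD13 (95% interval 0.17 to 0.95, adjusted p = 0.254) and 0.64 from there to GD14 (95% interval 0.25 to 1.04, adjusted p = 0.348).

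Krt18, the type I partner of Krt8, read 41.5, 64.2 and 48.4 on GD12, 75.9, 74.6 and 48.1 on GD13, then 106.1, 79.7 and 81.3 on GD14. GD14 lay above both other days, while GD12 and GD13 overlapped through the third GD13 array. The log2 change from GD12 to GD14 was 0.77 (SE 0.24, 95% interval 0.23 to 1.30), higher in 3 of 3 same-numbered arrays, and did not pass (limma adjusted p = 0.124). It passed with array weights (adjusted p = 0.0427). The further Krt18 probe set read 0.3 to 5.1 and was not tested.

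Krt5, Krt14 and Krt15, the keratins of the basal layer, read near the dim end of the array on all days. Krt14 read 4.0, 5.8 and 13.0 on GD12, 3.8, 8.7 and 2.5 on GD13, then 12.5, 7.8 and 3.7 on GD14. Krt5, its type II partner, read 4.9, 6.4 and 13.4 on GD12, 3.5, 7.7 and 3.1 on GD13, then 7.4, 3.6 and 3.0 on GD14. Krt15 read 0.6 to 4.1 on all arrays. Of these 27 values 3 exceeded the filter intensity, namely Krt14 and Krt5 on GD12 replicate 3 and Krt14 on GD14 replicate 1. The days overlapped in all 3 genes. Each gene had a single probe set, so no time course can be given for basal keratins, and a value at this level is a bound on what the probe set measured rather than on the gene. On the same arrays Col17a1, a collagen of hemidesmosomes in basal cells, rose from 64.5 ± 10.9 to 207 ± 60.8 between GD12 and GD14 (SD over 3 arrays a day; limma adjusted p = 0.00481). It belongs to a list of 16 tested desmosome and hemidesmosome genes, of which 5 rose and the others did not pass. Whether basal cells changed was not tested.

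Ratios within an array cancel a scale shared by both probe sets, and their change over days shows unequal change. Of 8 planned pairs, the 4 without a basal keratin could be formed from tested probe sets, with the brightest probe set for each gene. With 3 arrays against 3, an exact permutation test cannot go below p = 0.1, so no pair could reach 0.05. On the GD12 arrays the log2 ratio of Krt6a to Krt17 was 0.06, 0.21 and 0.25, followed by -0.04, 0.0007 and -0.22 on GD13 and by 1.02, 0.93 and 0.99 on GD14. GD14 lay about 1 log2 unit above both earlier days, without overlap (0.81 above GD12 and 1.07 above GD13, exact two-sided permutation p = 0.1 each). The difference between GD14 and GD12 was 1.29 with the probe set 92862_f_at for Krt17, 2.39 with 161496_r_at for Krt17, and 0.11 with the dimmer Krt6a probe set.

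The log2 ratio of Krt6a to Krt8 was -0.36 ± 0.15 on GD12, 1.12 ± 0.16 on GD13 and 1.53 ± 0.22 on GD14 (SD, n = 3 each; exact two-sided permutation p = 0.1 for GD14 against GD12). The dimmer Krt6a probe set gave a smaller gain over Krt8, 1.19 in place of 1.88. The ratio of Krt8 to Krt19 fell by 1.99 from GD12 to GD14, without overlap (exact two-sided permutation p = 0.1). The partners Krt8 and Krt18 had log2 ratios of 1.42, 0.88 and 1.53 on GD12, 1.22, 1.19 and 2.08 on GD13, then 1.50, 1.63 and 2.01 on GD14. These overlapped between days (difference 0.44 from GD12 to GD14, exact two-sided permutation p = 0.2), and the third array was the highest of each day. Adjusted over the 4 pairs, p was 0.133 for the first 3 and 0.2 for Krt8 with Krt18.

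**Figure D3:**
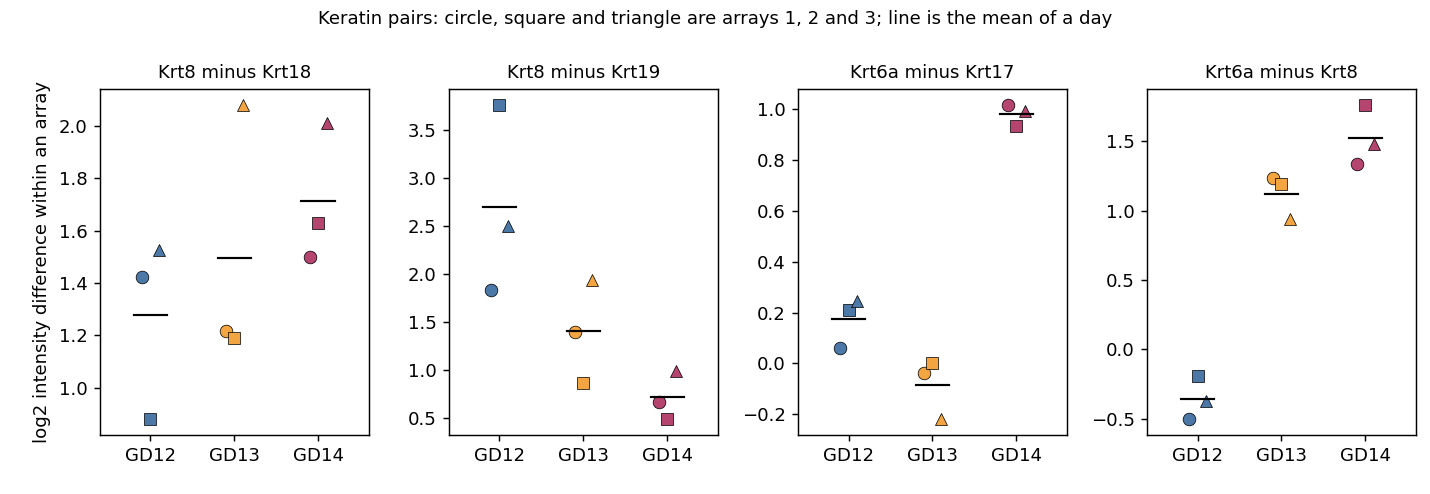
log2 intensity difference within an array between the brightest probe sets of 4 keratin pairs (y axes differ and do not start at 0). Points are arrays, shape gives the replicate number, and lines are means of 3 arrays. Krt6a minus Krt17 is near 0 on GD12 and GD13 and near 1 on GD14, while Krt8 minus Krt18 overlaps between days.

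The keratins were also set against other epithelial genes of the same arrays. The reference was the mean log2 level of 39 tested genes, 23 of epithelial identity and regulation and 16 of desmosomes and hemidesmosomes. This mean rose from 6.29 on GD12 to 6.62 on GD13 and 6.86 on GD14, by 0.58 in all. Relative to it, the log2 gain from GD12 to GD14 was 2.51 for Krt6a, 1.71 for Krt17, 2.62 for Krt19, 0.63 for Krt8 and 0.19 for Krt18. These gains are descriptions with no test. With only the desmosome and hemidesmosome genes as reference, the gain of Krt18 was -0.02, and that of Krt17 was 1.50.

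**Figure D4:**
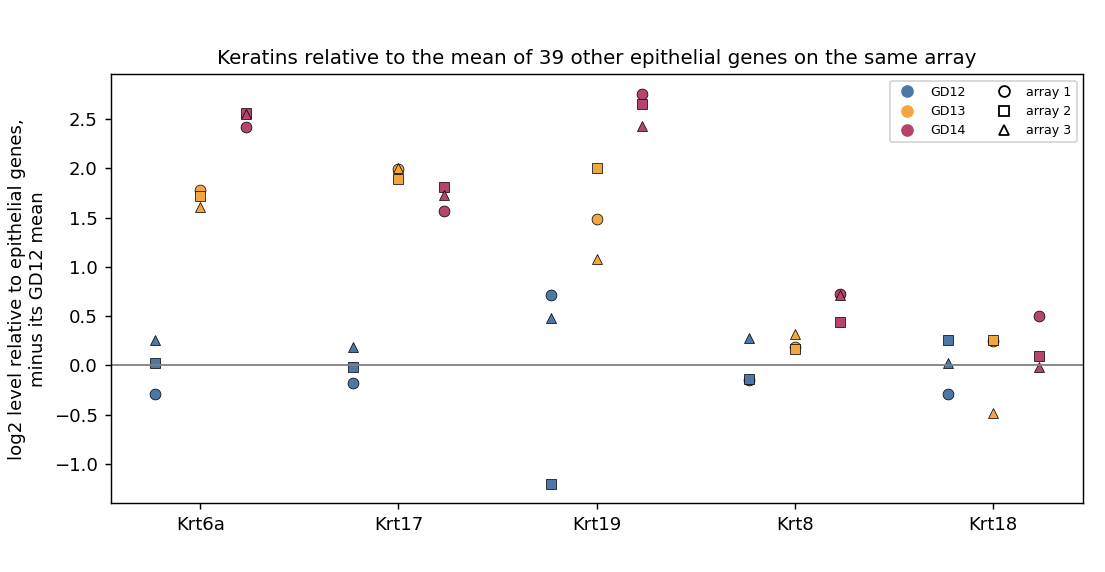
log2 level of 5 keratins relative to the mean of 39 other epithelial genes on the same array, set to a GD12 mean of 0. Points are arrays, colour gives the day and shape the replicate number. Krt6a, Krt17 and Krt19 lie far above 0 on GD14, and the GD13 and GD14 points of Krt18 lie on both sides of 0.

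Some genes of the anchors of keratin filaments rose between GD12 and GD14. Over all 9316 tested probe sets 401 passed in this comparison, and 302 of these (3.24% of all) rose. Of 16 tested genes of desmosomes and hemidesmosomes 5 rose and 0 fell in limma, with a median log2 change of 0.72, against -0.01 over all genes. They were Lamb3, a laminin chain under basal cells (7.80 ± 2.38 to 76.1 ± 17.2), Col17a1, the desmosomal plaque protein Jup (75.6 ± 11.1 to 149 ± 11.7), the desmosomal cadherin Dsc2 (24.1 ± 6.66 to 63.5 ± 10.3) and Dsp, which links keratins to desmosomes (317 ± 68.5 to 547 ± 51.2; SD, n = 3 each). In the list of epithelial identity and regulators, 4 of 23 tested genes rose and 2 fell (median 0.35). The risers were the galectin Lgals7 (6.13 ± 1.54 to 73.8 ± 20.0), the tight junction claudin Cldn7 (38.4 ± 8.32 to 78.3 ± 12.0), the transcription factor Klf4 (174 ± 23.4 to 311 ± 38.6) and the desmosomal protein Perp (213 ± 36.8 to 421 ± 119; SD, n = 3 each). The GD12 means of Lamb3 and Lgals7 lay under the filter intensity of 10.4. Both were thus tested only through their higher values on later days, and a gene this dim on all days would not have been tested. Cd24a, a surface glycoprotein (3017 ± 344 to 1645 ± 194), and Prom1, a membrane glycoprotein of progenitor cells (244 ± 14.3 to 139 ± 8.83; SD, n = 3 each), fell.

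Of 9 tested genes of periderm and cornified epithelium 2 rose and 0 fell between GD12 and GD14 (median 0.69). Over all tested probe sets 3.24% rose. Anxa1, an annexin of many tissues, read 366 ± 30.3 on GD12, 1218 ± 230 on GD13 and 1466 ± 143 on GD14. Krtdap, a protein of differentiating keratinocytes, went from 42.1 ± 18.2 to 142 ± 19.0 between GD12 and GD14 (SD, n = 3 each). Of 13 intermediate filament genes of other cells, Lmna, which encodes nuclear lamins A and C, rose (log2 1.70, adjusted p = 0.00837) and 0 fell, with a median of 0.05.

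Of 25 other keratin genes on the array, 18 were tested. With each represented by its brightest tested probe set, 0 passed in limma between GD12 and GD14, 4 had an unadjusted p under 0.05, and the median log2 change was 0.00. Over all 9316 tested probe sets 3.24% rose, so 0 among 18 genes does not set the other keratins apart from all probe sets. Over all 22 tested probe sets of these genes 1 passed, of Krt13, a type I keratin of oral and oesophageal lining, named here after its values were seen. It read 0.7 to 12.1 on GD12, 4.0 to 14.8 on GD13 and 24.0 to 43.4 on GD14 (100109_s_at, adjusted p = 0.0392). In log2 units, the change was 1.94 (adjusted p = 0.057) for a further Krt13 probe set and -0.05 (adjusted p = 0.968) for the third. The first and the further probe set had GD12 and GD13 means under the filter intensity of 10.4, and were tested only through their GD14 values. Krt4, the type II partner of Krt13, had a log2 change of 0.89 (125 ± 13.5 to 237 ± 60.4; SD, n = 3 each; adjusted p = 0.0693). Krt7, a type II keratin of simple and ductal epithelium named after its values were seen, read 9.5 to 43.5 on GD12, 58.8 to 74.4 on GD13 and 82.8 to 103.7 on GD14. Its days did not overlap, and its log2 change of 1.74 from GD12 to GD14 did not pass (adjusted p = 0.0574). The hair keratin Krt32 read 133 ± 26.5 on GD12 and 136 ± 41.9 on GD14 (SD over 3 arrays) and did not pass (adjusted p = 0.998).

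Markers of muscle, red cells and leukocytes included genes that changed with the day. Over all 9316 tested probe sets 401 passed between GD12 and GD14, and 302 of these (3.24% of all) rose. Of 6 tested muscle genes 5 rose from GD12 to GD14, with a mean log2 level of 6.74 to 7.01 on GD12 and 7.88 to 8.67 on GD14. Of 5 red cell genes 3 fell, with a mean log2 level of 10.4 to 10.9 on GD12 and 8.95 to 9.37 on GD14. Of 5 leukocyte genes 3 rose, with a mean level of 4.76 to 5.40 and 5.68 to 6.22 on these days. In the nasal and olfactory epithelium list 4 of 7 measured genes were tested and 1 rose, the ciliary regulator Foxj1, while Omp and Cnga2, defining genes of olfactory neurons, lay under the filter. Among 6 tested genes of hair follicle and skin 0 passed in limma (1 at an unadjusted p under 0.05), as among 7 of tooth germ (1) and 7 of endothelium (0). Of salivary gland markers 1 was tested and 0 passed (0 unadjusted). Neuronal markers had 1 fall among 6 (3 at an unadjusted p under 0.05), with a median log2 change of -0.72. Facial mesenchyme markers had 1 rise and 1 fall among 17 (8 unadjusted), with a median of -0.32. Over all genes the median was -0.01. The part of these tissues in the keratin changes was not tested.

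The actin ratio rose with the day on the first and second arrays. With its log2 as a covariate, the log2 change from GD12 to GD14 was 3.13 for Krt6a, 2.36 for Krt17, 3.15 for Krt19 and 1.32 for Krt8 on their brightest probe sets, and all 6 calls held. For Krt18 it was 0.58.

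Genes whose 9 values were most like those of the keratins that passed were listed by Pearson correlation of log2 values over the 9 arrays, the 3 highest for each, as a description. All arrays share the difference between days, so many genes reach high values. For Krt6a they were Tagln2, an actin-binding protein (r = 0.994), Aldh1a1, a retinaldehyde dehydrogenase (0.991), and the matrix proteoglycan Ogn (0.989). For Krt17 they were the secreted lectin Clec11a (0.979), Rpl39l (0.976) and the prostaglandin receptor Ptgfr (0.975), which read 20.6 ± 2.50 on GD12, 82.8 ± 12.9 on GD13 and 88.0 ± 16.9 on GD14 (SD, n = 3 each). For Krt19 they were the mitochondrial protein Tspo (0.977), the metallothionein Mt1 (0.974) and the prion protein gene Prnp (0.970). For Krt8 they were the coactivator and ferritin receptor Ncoa4 (0.979), Crtap, a collagen-modifying protein (0.972), and Shisa5 (0.969). None of these 12 genes is a keratin.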

How the data were processed

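The deposited table held the intensity of 12488 probe sets on 9 arrays, scaled by the authors so that the mean without the lowest and highest 2% was equal on every array. Image software and arrays per litter are not given in the sources used here. Symbols came from the GEO platform annotation and were checked in the GRCm38.p6 gene table. Intensities became log2 values after 3 was added (the table's 10th percentile). The 66 control probe sets and probe sets at or under the 25th percentile of mean log2 were left out, leaving 9316. Group means were compared with limma 3.58.1 in R 4.3.3 over all 9 arrays, with Benjamini-Hochberg adjustment over the 9316 and a threshold of 0.05. The script was tested on simulated data for the comparison of GD14 with GD12. It called 45.45% of the changes set to a log2 of 1 and 79% of those set to 2. Among the unchanged probe sets 12 were called. The simulated noise was independent between arrays, whereas same-numbered arrays of these data had correlated residuals, as given below. These rates may thus differ in the data. A change of log2 1 can thus fail to pass. Fold changes derive from log2(value + 3) and understate changes of dim probe sets. Pair ratios used exact permutation tests (scipy 1.17.1).

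Members and lists were chosen with earlier results of these data known. All member probe sets are named. From each list up to 6 genes with the smallest adjusted p between GD12 and GD14 are named, or the 2 brightest where none passed. Arrays with the same number had residual correlations of 0.19 to 0.42, against -0.29 to -0.02 for arrays with different numbers. The numbers thus appear to pair the arrays, though the labels name no pairing. The reported fit has no block, and the permutation tests of the pair ratios treated the arrays as unpaired. Alternatives were other scaling, added values, filters, variance models and array weights, the block, the actin ratio, only the groups compared, and omission of arrays. No array carries a read depth, and 3 arrays per day limit the precision.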

Additional observations from a re-analysis of the deposited data

How the results depend on the processing

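The replicate block gave 4 (GD13 with GD12), 0 (GD14 with GD13) and 6 (GD14 with GD12) keratin probe sets that passed and changed no call of a keratin, while over all probe sets it called 621 in place of 401 between GD12 and GD14. In the comparison of GD14 with GD12, 6 keratin probe sets passed under the alternatives run, except 7 with array weights and 5 without the third arrays. Over all probe sets the calls were 617 with array weights and 311 without the third arrays, in place of 401. In that of GD13 with GD12, the keratin count was 4, against 3 with quantile normalization, 3 with median scaling and 5 with a trended, robust variance. It was 2 with no filter, 1 without the third arrays and 2 to 4 without any single array. Over all probe sets the calls were 60, against 59 with quantile normalization, 43 with median scaling and 115 with a trended, robust variance. They were 35 with no filter, 10 without the third arrays and 17 to 59 without any single array. In the comparison of GD14 with GD13 the keratin count was 0. It was 1 with 11 added before log2, 1 with a filter at the median and 1 with a trended, robust variance. Over all probe sets the calls were 4, against 16, 19 and 26 with these settings. Changes near 0 turned sign. For GD14 with GD13, Krt17 92861_i_at gave 0.00020 with median scaling, 0.014 with the actin covariate and -0.081 to 0.073 without single arrays, 92862_f_at gave 0.030 with the actin covariate and -0.398 to 0.149 without single arrays, and 161496_r_at gave -0.175 to 0.531 without single arrays. The second step minus the first ranged, without single arrays, from -1.05 to 0.302 for 161496_r_at, from -0.896 to 0.044 for Krt19, from -0.030 to 0.260 for Krt8 and from -0.324 to 0.302 for Krt18, and for Krt18 it was -0.163 with array weights and -0.237 without the third arrays. The gain of Krt18 relative to desmosome and hemidesmosome genes was -0.018. Causes were not tested. The 5 keratin probe sets under the filter are too dim for a time course, and they include every probe set of the basal keratins.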
